A study of Mus musculus with 51 samples.

Results

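The Wnt pathway was examined in mouse embryonic stem cells (mESCs) through 50 genes chosen by name and role, out of 35591 genes in the deposited count table. They are 19 Wnt ligands and *Porcn*, 14 receptors, 4 TCF/LEF transcription factors, beta-catenin with 4 subunits of its destruction complex, and 7 feedback genes and antagonists. Their RNA was followed in 6 of the 51 samples of the series, the mESC lines cultured in 2i + LIF, and 38 of the 50 genes had enough reads to be tested. All 6 are male F1 lines of a C57BL/6 mother and a Castaneus (Cast) father, each derived from its own blastocyst. The 3 wt lines carry a floxed, undeleted maternal *Smchd1* allele (*Smchd1* fl/+) and the 3 mat del lines carry a maternal allele deleted in the growing oocyte by Zp3-Cre (*Smchd1* del/+). Both genotypes have an intact Cast paternal allele, so the mat del cells lacked the oocyte's SMCHD1 while their own paternal gene can be expressed. SMCHD1 is a chromatin protein that silences genes on the inactive X chromosome and in some gene clusters. Comparing the genotypes asks whether the mat del genotype goes with other levels of this pathway before differentiation. The mat del cells also lack their own maternal copy of the gene, and these lines include no heterozygous control from an oocyte with SMCHD1. Absence of SMCHD1 from the oocyte and the missing copy therefore cannot be told apart here.

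Wnt proteins are secreted signals that PORCN, an acyltransferase of the endoplasmic reticulum, modifies with a lipid before release. They bind Frizzled receptors together with the co-receptors LRP5 or LRP6, which stops the destruction complex of AXIN1, APC and the GSK3 kinases from marking beta-catenin for degradation, so that beta-catenin enters the nucleus and acts with TCF/LEF factors. In mESCs the pathway helps to maintain the naive pluripotent state, largely by lifting repression by TCF7L1. The 2i medium contains the GSK3 inhibitor CHIR99021, which stabilises beta-catenin without a ligand, next to the MEK inhibitor PD0325901. Feedback genes such as *Axin2* and *Sp5* are direct beta-catenin targets that dampen the signal.

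Total counts ranged from 27526359 to 126716460 a line, and the 50 genes together took between 51667 and 246700 of them. *Smchd1*, the deleted gene, was checked first. Its level was 5.35, 6.19 and 5.97 FPKM (library-scaled counts corrected for exon length) in wt lines 1, 2 and 3, and 3.19, 3.60 and 4.54 FPKM in mat del lines 1, 2 and 3. Each mat del line was below each wt line, with a log2 fold change of -0.63 (standard error 0.14). The edgeR quasi-likelihood test gave it an adjusted p-value of 0.992 over the 17696 genes tested. All 14 naive pluripotency markers were at a mean of 15.2 FPKM or more. Of the markers of fibroblasts, as used in feeder layers, 6 of 7 were at a mean under 0.1 FPKM, and the list summed to 0.541 to 1.86 FPKM in wt and 0.38 to 0.733 FPKM in mat del lines. The 5 markers of 2-cell-like cells were all under 0.1 FPKM. Markers of other states were in part expressed. A mean of at least 1 FPKM was reached by 3 of 6 formative or primed, 3 of 6 mesendoderm and 2 of 4 neural markers. The same held for 2 of 6 trophoblast and 1 of 7 primitive endoderm markers. The highest means in these lists were those of *Lefty2* (43.7 FPKM, formative or primed) and *Tubb3* (22.1 FPKM, neural). The formative or primed list summed to 64.6 to 77.2 FPKM in wt and 45.8 to 63.4 FPKM in mat del lines. The sums of all other lists overlapped between the genotypes. *Lefty2* had a log2 fold change of -0.47 (standard error 0.17), with an adjusted p-value of 0.992 in the edgeR test.

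The sequences in front of a pair of feedback genes are shown first, because the lines numbered 3 held the highest *Axin2* and the lowest *Sp5* of each genotype. Promoter windows from RefSeq (GRCm38.p6) were found for 34 of the 50 genes, and the 250 bases before each transcription start were searched for the TCF/LEF core, CTTTGA, and its reverse complement, TCAAAG. Of the 34 genes, 8 had at least 1 match (23.5%), against 15.8% of the 27025 gene symbols with a window. The 8 are *Dkk1*, *Fzd1*, *Gsk3a*, *Gsk3b*, *Lef1*, *Sp5*, *Wnt11* and *Wnt5b*. *Dkk1*, *Lef1* and *Sp5* had 2 matches in a window, and for *Lef1* that window lies at an internal start. The match of *Wnt5b* also lies at an internal start, and the window at its outermost start has none. Below are the windows of *Sp5*, at chr2:70474673-70474922 on the plus strand, and of *Axin2*, at chr11:108920099-108920348 on the plus strand, written 5′ to 3′ with matches to the core in capitals.
Sp5: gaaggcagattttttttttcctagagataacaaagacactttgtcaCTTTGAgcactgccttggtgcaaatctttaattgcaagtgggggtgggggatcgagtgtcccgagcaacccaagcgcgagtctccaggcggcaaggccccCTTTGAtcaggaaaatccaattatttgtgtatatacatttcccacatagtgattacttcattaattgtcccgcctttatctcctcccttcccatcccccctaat
Axin2: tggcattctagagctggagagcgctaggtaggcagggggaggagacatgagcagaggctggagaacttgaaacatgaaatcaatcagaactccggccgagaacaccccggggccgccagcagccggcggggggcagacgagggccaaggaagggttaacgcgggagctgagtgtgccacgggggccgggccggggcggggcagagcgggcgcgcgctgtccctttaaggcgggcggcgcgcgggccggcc
The matches in *Sp5* begin 204 and 104 bases before the start, and the *Axin2* window has none. A match is a description of letters and not evidence of binding, and the absence of one says only that these letters are not in this window.

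Most of the receiving side of the pathway was expressed and most of the ligands were not. A mean of at least 1 FPKM over the 6 lines was reached by 22 of the 50 genes (44%, against 49.5% of 21880 protein-coding genes). They were 8 of 14 receptors, 3 of 4 TCF/LEF factors, all 5 genes of beta-catenin and its destruction complex and 4 of 7 feedback genes, but 2 of the 20 genes on the ligand side. Another 10 genes lay between 0.1 and 1 FPKM and 18 were under 0.1 FPKM, of which 14 were ligands. In bulk RNA, a low level in every cell and a higher level in a few cells cannot be told apart.

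**Figure D1:**
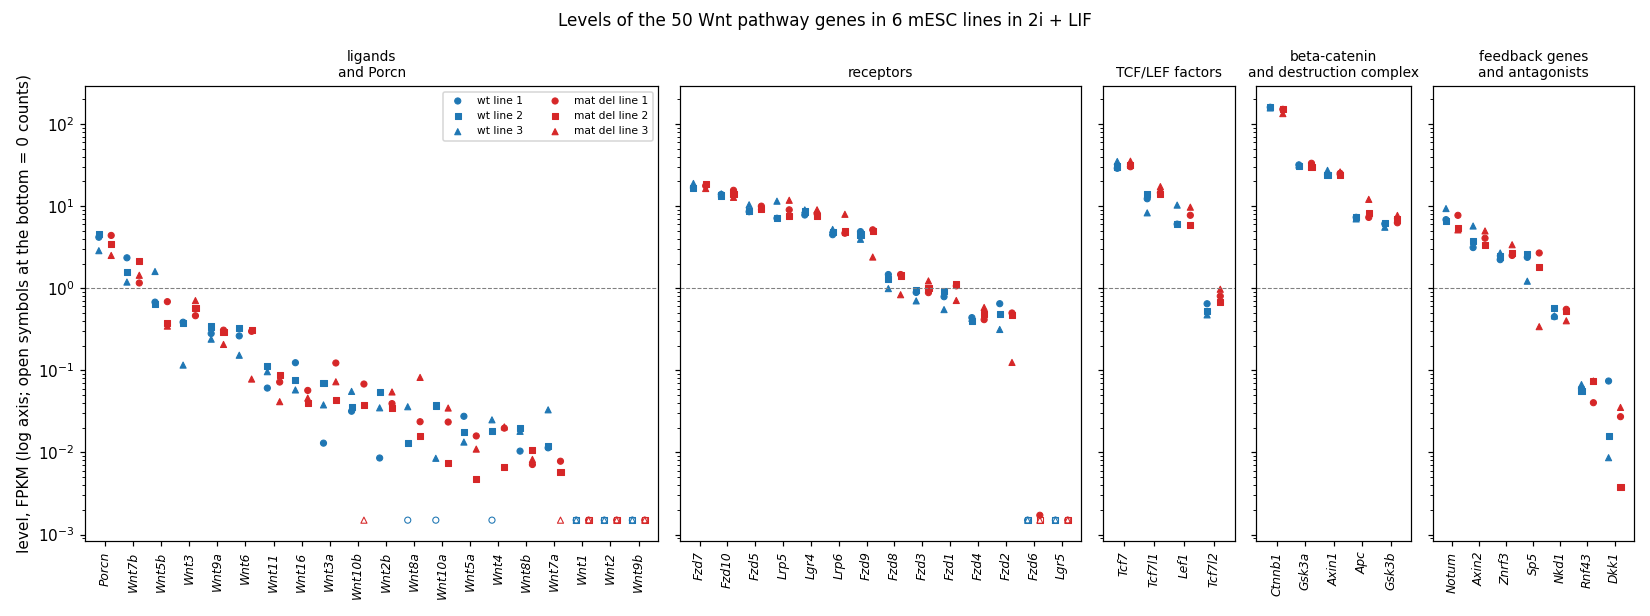
Level of each of the 50 genes in each line in FPKM on a log axis, grouped by role and ordered by mean level, with wt lines in blue, mat del lines in red and a symbol for each line number. The dashed line marks 1 FPKM and open symbols mark 0 counts. Of the 20 genes on the ligand side, 18 have a mean under the dashed line, whereas all of beta-catenin and its destruction complex lie above it.

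On the ligand side the highest gene was *Porcn*, needed for secretion, at 4.18, 4.54 and 2.87 FPKM in wt lines 1, 2 and 3 and 4.40, 3.42 and 2.51 FPKM in mat del lines 1, 2 and 3. *Wnt7b* was the highest ligand, at 2.35, 1.56 and 1.19 FPKM in the wt lines and 1.16, 2.17 and 1.44 FPKM in the mat del lines. Its groups overlapped fully, and with standard errors of 0.25 and 0.31 the log2 fold changes of *Porcn* (-0.16) and *Wnt7b* (-0.09) were smaller than the error of the comparison. *Wnt9a* and *Wnt6* followed *Wnt5b* and *Wnt3* at means of 0.279 and 0.239 FPKM. *Wnt3a*, a classical activator of the beta-catenin branch that later acts in the primitive streak, had 1, 25 and 5 counts in the wt lines and 41, 13 and 7 counts in the mat del lines. *Wnt5a*, a ligand best known for signalling without beta-catenin, had 51 counts in all 6 lines together and did not pass the expression filter. *Wnt1*, *Wnt2* and *Wnt9b* had 0 counts in all 6 lines, which over the pooled depth allows levels of up to 0.00269, 0.00283 and 0.00141 FPKM, counting error only.

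Among the receptors, *Fzd7* and *Fzd10* were the highest. *Fzd7*, a Frizzled known from pluripotent cells, was at 16.7, 16.8 and 18.9 FPKM in wt and 17.7, 18.7 and 16.4 FPKM in mat del lines 1, 2 and 3. *Fzd10* was at 13.9, 13.5 and 14.1 FPKM in wt and 15.6, 14.1 and 12.8 FPKM in mat del lines. Their log2 fold changes were 0.02 (standard error 0.10) and 0.04 (0.11), and their spread between lines of 1 genotype was 0.676 and 0.703 times the median of genes of like level. *Fzd5* was at 8.56, 8.67 and 10.4 FPKM in wt and 10, 9.15 and 9.83 FPKM in mat del lines, with overlapping groups. The means of *Fzd9* (4.31 FPKM) and *Fzd8* (1.25 FPKM) were lower, those of *Fzd3*, *Fzd1*, *Fzd4* and *Fzd2* lay between 0.424 and 0.945 FPKM, and *Fzd6* had 1 count in 1 line.

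Both co-receptors of the beta-catenin branch were expressed. *Lrp5* was at 7.12, 7.09 and 11.5 FPKM in wt and 9.02, 7.53 and 11.8 FPKM in mat del lines 1, 2 and 3, so line 3 was the highest in each genotype. *Lrp6* had a mean of 5.34 FPKM, with mat del line 3 at 7.96 FPKM and the other lines between 4.49 and 5.21 FPKM. The R-spondin receptors divided sharply, with *Lgr4* at a mean of 8.36 FPKM (range 7.64 to 9.03) and *Lgr5*, a marker of Wnt-dependent stem cells in adult tissues, at 0 counts in all 6 lines, which allows up to 0.000622 FPKM. None of the 12 tested receptors was called, and all 12 log2 fold changes lay between -0.34 and 0.36.

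All 4 TCF/LEF genes had reads in each line. *Tcf7* (TCF1) was the highest at 28.9, 30.4 and 35.0 FPKM in wt lines 1, 2 and 3 and 30.2, 31.7 and 35.3 FPKM in mat del lines 1, 2 and 3, and its log2 fold change was 0.04 (standard error 0.11). *Tcf7l1* (TCF3), the repressor, was at 12.3, 14.1 and 8.29 FPKM in wt and 14.6, 14.1 and 17.3 FPKM in mat del lines. The groups meet at 14.1 FPKM, and without wt line 3 its log2 fold change went from 0.40 (standard error 0.19) to 0.21. *Lef1*, which is both a factor and a Wnt target in many tissues, was at 6.04, 6.00 and 10.3 FPKM in wt and 7.74, 5.89 and 9.72 FPKM in mat del lines, and again line 3 was the highest of each genotype. *Tcf7l2* (TCF4, chromosome 19, 55741820 to 55933654) was the lowest at 0.648, 0.530 and 0.474 FPKM in wt and 0.802, 0.678 and 0.973 FPKM in mat del lines. Its groups did not overlap, with a log2 fold change of 0.57 (standard error 0.21), the smallest p-value of the 38 tested genes and an adjusted p-value of 0.992 in the edgeR test. The log2 fold change of *Tcf7l2* stayed between 0.43 and 0.71 when each line was left out in turn.

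*Ctnnb1*, which encodes beta-catenin and lies on chromosome 9 of GRCm38 from 120929216 to 120960507, was the highest of the 50 genes. Its level was 160, 162 and 157 FPKM in wt lines 1, 2 and 3 and 151, 153 and 134 FPKM in mat del lines 1, 2 and 3. Each mat del line was below each wt line, by a log2 fold change of -0.13 (standard error 0.10) that was -0.07 without mat del line 3, with an adjusted p-value of 0.992 in the edgeR test. The kinase *Gsk3a* and the scaffold *Axin1* varied little, between 30.2 and 33.3 FPKM and between 23.8 and 27.3 FPKM over the 6 lines, with log2 fold changes of -0.01 each (standard errors 0.09 and 0.10). *Gsk3b* was at 6.10, 6.25 and 5.54 FPKM in wt and 6.27, 6.87 and 7.71 FPKM in mat del lines. These groups are separated by 6.25 against 6.27 FPKM, and the log2 fold change of *Gsk3b* was 0.22 (standard error 0.11) and 0.14 without mat del line 3. *Apc*, the large scaffold of the complex, was at 7.31, 7.43 and 6.99 FPKM in wt and 7.29, 8.28 and 12.1 FPKM in mat del lines. Its log2 fold change of 0.35 (standard error 0.18) fell to 0.10 without mat del line 3. For *Ctnnb1* and *Gsk3a*, 15.1% and 28.3% of the exon bases also lie in exons of another gene, almost all on the opposite strand. The shares were 17.8% for *Fzd5* and 13.7% for *Lef1*, on the opposite strand, and how strand entered the counting is not stated.

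Of the 7 feedback genes and antagonists, 4 reached 1 FPKM. *Notum*, a secreted enzyme that removes the lipid from Wnt proteins, was the highest at 6.85, 6.52 and 9.35 FPKM in wt lines 1, 2 and 3 and 7.73, 5.42 and 5.14 FPKM in mat del lines 1, 2 and 3. Of its exon bases, 38.1% are shared with transcripts of the opposite strand. Unless strand was used in the counting, which is not stated, reads of those transcripts cannot be told apart from those of *Notum*. *Axin2*, a widely used readout of beta-catenin activity (chromosome 11, 108920349 to 108950783), was at 3.13, 3.72 and 5.73 FPKM in wt and 4.07, 3.39 and 4.99 FPKM in mat del lines. Its groups overlapped fully, with a log2 fold change of -0.02 (standard error 0.24). *Znrf3*, a ubiquitin ligase that removes Frizzled from the surface, was at 2.23, 2.44 and 2.69 FPKM in wt and 2.51, 2.71 and 3.39 FPKM in mat del lines, whereas its partner *Rnf43* lay between 0.0404 and 0.0745 FPKM in all 6 lines.

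*Sp5*, a transcription factor that competes at Wnt target genes (chromosome 2, 70474923 to 70477729), varied the most. It was at 2.38, 2.62 and 1.22 FPKM in wt lines 1, 2 and 3 and 2.69, 1.81 and 0.341 FPKM in mat del lines 1, 2 and 3, so line 3 was the lowest of each genotype. Its SD between lines of 1 genotype, 1.13 on the log2 scale, was 3.99 times the median of genes of like level, the highest ratio among the 38. *Nkd1*, which binds Dishevelled, was steady at 0.450, 0.580 and 0.460 FPKM in wt and 0.554, 0.534 and 0.402 FPKM in mat del lines. *Dkk1*, a secreted inhibitor of LRP5 and LRP6, had 23 counts in all 6 lines together and was not tested.

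**Figure D2:**
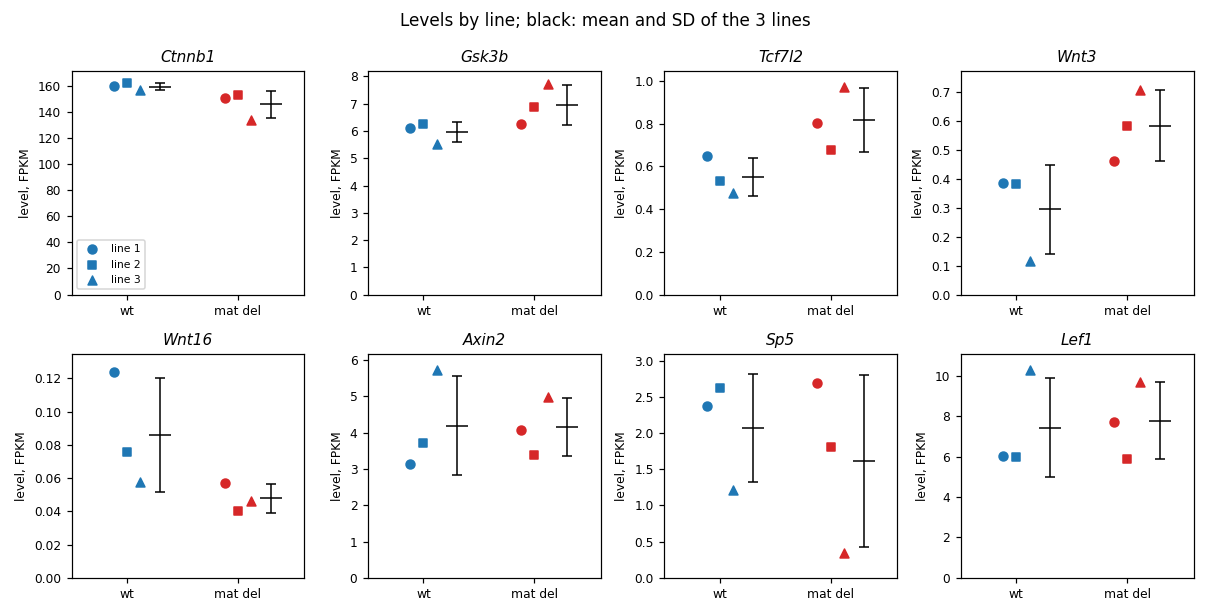
Level of 8 genes in each line in FPKM on linear axes from 0, with a symbol for each line number and the mean and SD of the 3 lines of a genotype in black. *Ctnnb1*, *Gsk3b*, *Tcf7l2*, *Wnt3* and *Wnt16* are the 5 tested genes whose groups do not overlap. In *Axin2* and *Lef1* the triangles of line 3 are the highest in both genotypes, and in *Sp5* they are the lowest.

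No gene of the 50 was called between mat del and wt lines, which is also the count over all 17696 genes tested (0 at an adjusted p-value under 0.05, 0% of them). The edgeR test gave an unadjusted p-value under 0.05 to 2 of the 38 tested genes, *Tcf7l2* and *Wnt5b*, and to 397 of all 17696 genes (2.24%). DESeq2 and edgeR's exact test each gave such a value to 3 of the 38, beside 460 (2.60%) and 462 (2.61%) of all genes, and the exact test called 2 of all genes (0.0113%) at an adjusted p-value under 0.05, neither of them among the 38. The log2 fold changes of the 38 had a median of 0.01, with 22 above and 16 below 0, and their median size was 0.13, beside -0.01 and 0.14 over all genes tested. Of the 38, 33 differed by 0.5 or less on the log2 scale. The groups did not overlap for 5 of the 38 (13.2%), 3 higher and 2 lower in mat del lines, beside 9.38% of all genes tested, 4.70% higher and 4.68% lower. A p-value above the threshold does not show equal levels, and the standard errors of the 38 ranged from 0.09 to 0.61.

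**Figure D3:**
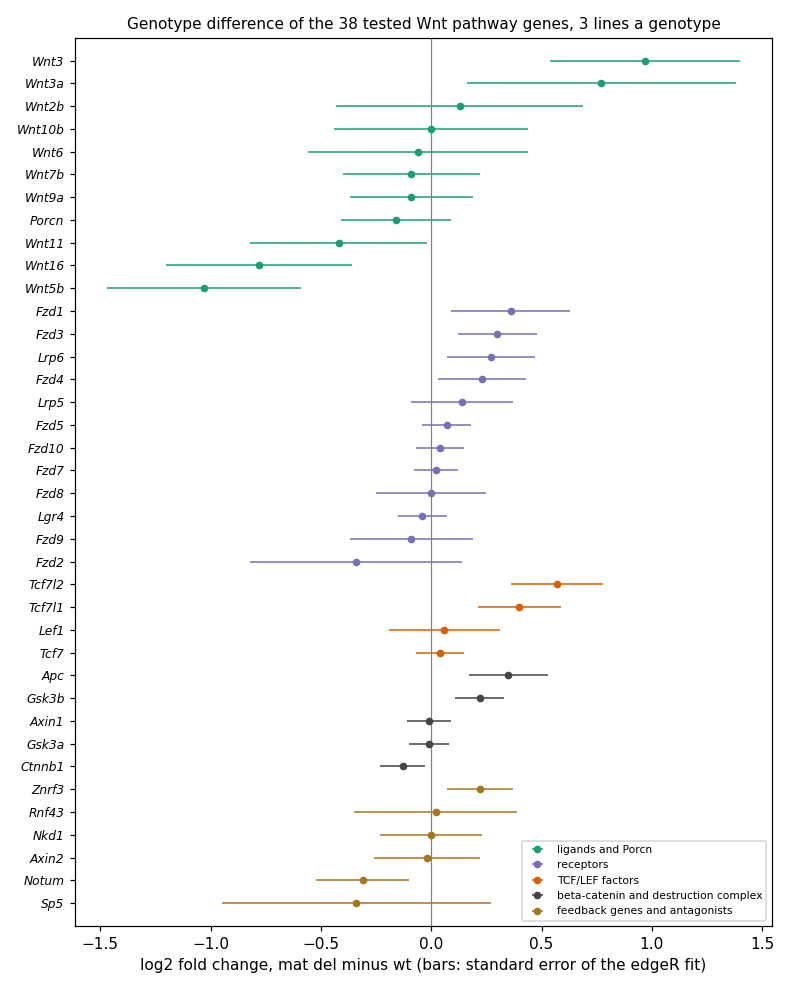
Log2 fold change, mat del minus wt, of the 38 tested genes with the standard error of the edgeR fit as bars, coloured by role. The values run from -1.03 for *Wnt5b* to 0.97 for *Wnt3*, and the 5 genes of beta-catenin and its destruction complex lie between -0.13 and 0.35.

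The largest differences were among ligands of low level. *Wnt5b*, on chromosome 6 from 119432531 to 119544347, was at 0.678, 0.643 and 1.6 FPKM in wt lines 1, 2 and 3 and 0.687, 0.379 and 0.346 FPKM in mat del lines 1, 2 and 3. The groups overlapped, wt line 3 was the highest of all, and the log2 fold change of -1.03 (standard error 0.44) shrank to -0.46 without that line. The same wt line 3 held the highest sum of the feeder fibroblast list, 1.86 FPKM. Of this sum, *Thy1* made up 1.67 FPKM (0.283 to 0.620 FPKM in the other lines). *Col3a1* and *Dcn* were at 0.0150 and 0.0108 FPKM in wt line 3. They were higher in mat del line 3, at 0.0321 and 0.0147 FPKM, and *Wnt5b* was the lowest of all in that line. The paper describes growth of the lines in suspension in 2i + LIF and mentions no feeder cells. The part of fibroblasts in the *Wnt5b* level was not tested.

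*Wnt3*, a ligand of the beta-catenin branch on chromosome 11 from 103774150 to 103817957, went the other way. It was at 0.386, 0.382 and 0.116 FPKM in wt lines 1, 2 and 3 (33, 153 and 17 counts) and 0.463, 0.582 and 0.708 FPKM in mat del lines 1, 2 and 3 (172, 194 and 76 counts). The groups did not overlap, and its log2 fold change of 0.97 (standard error 0.43) became 0.59 without wt line 3. *Wnt16* was at 0.124, 0.0758 and 0.0578 FPKM in wt and 0.0570, 0.0402 and 0.0460 FPKM in mat del lines. Its groups were separated by 0.0578 against 0.0570 FPKM, on 12 counts in wt line 3 and 30 counts in mat del line 1, and its log2 fold change was -0.78 (standard error 0.42) and -0.48 without wt line 1. *Wnt3a* had a log2 fold change of 0.77 with a standard error of 0.61.

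In several genes the lines numbered 3 stood together across the genotypes. In both genotypes line 3 held the highest *Axin1*, *Axin2*, *Lef1*, *Lgr4*, *Lrp5*, *Lrp6*, *Tcf7* and *Znrf3*. It held the lowest *Ctnnb1*, *Fzd1*, *Fzd2*, *Fzd8*, *Fzd9*, *Porcn*, *Sp5*, *Wnt6* and *Wnt9a* in both. In *Fzd7*, *Fzd10*, *Notum*, *Wnt5b* and *Wnt10b* line 3 was the highest of wt and the lowest of mat del. In *Apc*, *Fzd3*, *Gsk3b*, *Tcf7l1*, *Tcf7l2* and *Wnt3* the reverse held. All were chosen for mention after their values were seen, and the share of all genes tested with such an order was not computed. *Lef1* at 10.3 and 9.72 FPKM and *Lrp5* at 11.5 and 11.8 FPKM in line 3 of wt and mat del stood against 5.89 to 7.74 and 7.09 to 9.02 FPKM in the other 4 lines. *Fzd8* was at 0.991 and 0.835 FPKM in line 3 against 1.29 FPKM or more in each other line. Among the feedback genes, *Axin2* was thus highest in the lines where *Sp5* was lowest. Both lines numbered 3 also had the highest share of mitochondrial counts, 2.87% and 3.33% against 1.76% to 2.10% in the other 4. The lines were derived separately, and whether libraries of 1 number were handled together is not stated. The part of RNA quality or handling in these levels was not tested.

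The spread between lines was set against genes of like level. Of the 38 tested genes, 20 varied more between lines of 1 genotype than the median of 200 genes of like level, with a median ratio of 1.09. *Gsk3a*, *Ctnnb1* and *Axin1* were the steadiest, at ratios of 0.421, 0.442 and 0.542. *Sp5*, *Lef1* and *Lrp5* were the most variable at 3.99, 2.78 and 2.59, followed by *Fzd2* at 2.33 and *Lrp6* at 2.07.

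**Figure D4:**
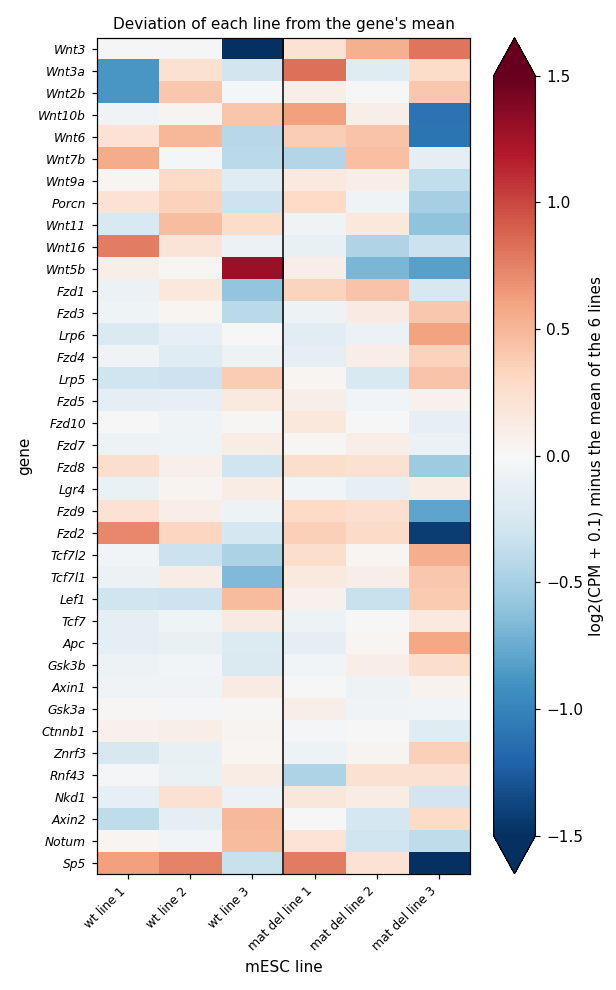
Deviation of each line from the mean of the 6 lines, on the log2(CPM + 0.1) scale, for the 38 tested genes (rows, by role) and the 6 lines (columns, wt left and mat del right of the black line). *Wnt3* and *Wnt5b* stand out in wt line 3 and *Sp5* in mat del line 3, while *Gsk3a*, *Ctnnb1* and *Axin1* are pale in all lines.

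Other genes of the pathway were read in the same table. Of 72 further pathway genes in the table, 63 were tested and none was called (0% of all genes tested were). Of the 63, 43 had a log2 fold change above and 20 below 0, and the groups did not overlap for 9 (14.3%), beside 8547 above, 9149 below and 9.38% without overlap over all 17696 genes tested. The smallest p-values were those of *Csnk1e*, a kinase acting on Dishevelled, *Daam1*, a formin of the branch without beta-catenin, and *Pygo1*, a beta-catenin co-activator. *Csnk1e* was at 10.4, 12.1 and 10.6 FPKM in wt lines 1, 2 and 3 and 13.0, 14.2 and 16 FPKM in mat del lines 1, 2 and 3. These groups did not overlap, and the log2 fold change of *Csnk1e* was 0.39 (standard error 0.12) with an adjusted p-value of 0.992 in the edgeR test. *Daam1* was between 5.79 and 9.59 FPKM, with a log2 fold change of 0.35 (standard error 0.15), and *Pygo1* between 0.819 and 1.36 FPKM, with one of 0.38 (standard error 0.17). The highest of the 72 were the deacetylase *Hdac1*, the cadherin *Cdh1*, which holds beta-catenin at the membrane, and the co-repressor *Aes*, at means of 87.0, 83.9 and 54.6 FPKM. *Cdh1* was at 102 and 113 FPKM in the lines numbered 3 and between 66.7 and 80.0 FPKM in the other 4. The R-spondins, ligands of LGR4, were scarce. *Rspo1* had 102 counts over all 6 lines, at a mean of 0.113 FPKM, and *Rspo2*, *Rspo3* and *Rspo4* had 10, 7 and 23 counts.

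Known Wnt target genes outside the 50 were read in the same way. Of 19 such genes, 18 were tested, none was called, and 13 had a log2 fold change above and 5 below 0, beside the 8547 and 9149 of all genes tested. The groups did not overlap for 4 of the 18 (22.2%, beside 9.38% of all genes tested), named here after their values were seen. *Ascl2* was lower in mat del lines, at 5.90, 6.82 and 6.71 FPKM in wt lines 1, 2 and 3 and 5.46, 4.90 and 2.93 FPKM in mat del lines 1, 2 and 3. *Tbx3* and *T* (Brachyury), a mesoderm factor, were higher there, with log2 fold changes of 0.25 (standard error 0.12) and 0.28 (0.16), as was *Cyp26a1* at a mean of 0.0515 FPKM. *Ascl2* had the largest of these differences relative to its error, -0.54 (standard error 0.23), with an adjusted p-value of 0.992 in the edgeR test. *Nanog* and *Esrrb*, pluripotency factors whose genes TCF7L1 represses, were at means of 361 and 93.2 FPKM, with log2 fold changes of 0.08 (standard error 0.12) and 0.01 (0.11).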

How the data were processed

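RNA-seq of 6 mESC lines in 2i + LIF was analysed, 3 a genotype, grouped by the GEO labels. Poly-A libraries were sequenced with paired ends, from a stranded or a non-stranded kit, and which kit made which library is not given in the sources used here. The authors trimmed reads with Trim Galore 0.4.4, mapped them to GRCm38 with HISAT2 2.0.5 and deposited raw counts per gene from SeqMonk, without normalization, for 35591 genes. They also deposited log2 RPKM values of 34 factors over a differentiation time course, corrected for library size and transcript length, of which 9 are among the 50 genes. A further deposited table of *Hox* genes was not used here. The time course columns of the count table served only as a check of names. For 7 of 45 log2 RPKM columns, the best correlated count column over 33 factors carried the same name, so those counts were not used, and no column was renamed. This check does not cover the 2i + LIF columns, whose labels rest on their names and on the *Smchd1* level.

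Counts were scaled by TMM and tested with edgeR 4.0.16 (quasi-likelihood, R 4.3.3) over the 17696 genes that passed its default expression filter, with Benjamini-Hochberg adjustment at 0.05. FPKM is TMM-scaled CPM divided by merged exon length in GENCODE M21. The fit had a common biological coefficient of variation of 0.208 and was tested on simulated counts. Alternatives were RLE and total-count scaling, the exact test of edgeR, DESeq2 1.42.0, no expression filter beyond 1 count, a minimum of 10 counts in every line, each line left out, and the line number as a block. Deviations from the genotype means correlated between lines of the same number at 0.165, 0.334 and 0.383 for numbers 1, 2 and 3. Such a correlation was not computed between lines of different numbers. The main fit did not pair the lines, and the number entered only as the block of the alternative fit. Nothing in the labels says that a number marks a shared batch. Genes were named if they were among the 4 highest of their role, belonged to the TCF/LEF, destruction complex or feedback groups, had 1 of the 5 smallest p-values or 5 largest fold changes, or had groups that do not overlap. Other Wnt genes were named to complete their role, after their values were seen. The 50 genes and all lists were chosen with earlier results of these data known. With 27526359 counts or more a line, limits for a count of 0 are 3 counts and cover counting error only.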

Additional observations from a re-analysis of the deposited data

Results flagged for a closer look

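In the time course table of log2 RPKM values, 5 values of the 9 Wnt genes present there were marked as outliers among the 4 libraries of their group. The marking used Dixon's test at the 95% level, in 81 groups tested (1 gene in 4 libraries each). Chance passes this test in about 1 of 20 groups, and 5 of 81 is close to that share. In the library labelled mat del day 1 replicate 4, *Ctnnb1* was at -5.84, *Gsk3b* at -6.76 and *Wnt5a* at -6.43 log2 RPKM. The medians of the 4 libraries of that group were 6.66 for *Ctnnb1*, 2.03 for *Gsk3b* and -3.97 for *Wnt5a*. In that library 10 of the 34 factors of the table were below -5 log2 RPKM, 5 of them Wnt genes, and in every other library at most 3 factors were. In the library labelled mat del day 3 replicate 2, *Wnt5a* was at 1.43 and *Wnt5b* at 4.93 log2 RPKM, both above the other 3 libraries (at most -0.90 for *Wnt5a* and 4.58 for *Wnt5b*). None of these libraries enters the comparison of wt and mat del lines in 2i + LIF.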

How the results depend on the processing

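None of the 50 Wnt genes and none of the 72 other pathway genes was called under any alternative, and the lowest adjusted p-value of a tested Wnt gene under any of them was 0.773. Over all genes, edgeR's exact test called 2, *Magel2* and *Gemin5*, neither of them a Wnt gene, and all other alternatives called 0. An unadjusted p-value under 0.05 was reached by 397 of all genes, a number that was 730 with the line number as a replicate block, 548 with all genes with any count and 231 to 639 with 1 line left out. For the Wnt genes that number was 2, and it lay between 0 and 4 under the alternatives, with 1 under the block. It was 0 without wt line 3 and 0 without mat del line 3. The block changed no call. *Smchd1* stayed lower in mat del lines throughout, at log2 fold changes of -0.78 to -0.52. The number of Wnt genes at a mean of 1 FPKM or more was 22 with each line left out and under both other scalings, 23 with the longest transcript as length, 26 at a threshold of 0.5 FPKM and 19 at 2 FPKM.

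The sign of the log2 fold change was not stable for 22 of the 38 tested genes. With each line left out in turn they ranged from -0.05 to 0.05 for *Axin1*, -0.18 to 0.27 for *Axin2*, -0.04 to 0.10 for *Fzd10*, -0.63 to 0.03 for *Fzd2*, -0.02 to 0.08 for *Fzd7*, -0.14 to 0.22 for *Fzd8*, -0.26 to 0.19 for *Fzd9*, -0.05 to 0.03 for *Gsk3a*, -0.13 to 0.37 for *Lef1*, -0.11 to 0.03 for *Lgr4*, -0.05 to 0.41 for *Lrp5*, -0.01 to 0.42 for *Lrp6*, -0.08 to 0.13 for *Nkd1*, -0.37 to 0.02 for *Porcn*, -0.13 to 0.29 for *Rnf43*, -0.92 to 0.11 for *Sp5*, -0.02 to 0.13 for *Tcf7*, -0.14 to 0.37 for *Wnt10b*, -0.13 to 0.31 for *Wnt2b*, -0.31 to 0.26 for *Wnt6*, -0.37 to 0.21 for *Wnt7b* and -0.20 to 0.07 for *Wnt9a*. The replicate block gave *Axin2* 0.01, *Fzd8* -0.03, *Nkd1* -0.01 and *Wnt10b* -0.23, and total counts gave *Fzd8* -0.00 and *Nkd1* -0.01. *Wnt10b* was at -0.13 by DESeq2, -0.05 by the exact test and -0.05 with all genes with any count. The cause was not tested. With 3 lines a genotype and a total of 27526359 counts in the shallowest line, 9 of the 20 genes on the ligand side could not be tested.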

Other observations

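In the deposited log2 RPKM table of the differentiation time course, 9 of the 50 genes are listed, and the values below are given by the day in each column's name, with the limit that these names mostly do not match those of the count table's columns, and which of both is right cannot be told apart here. The GSK3 inhibitor CHIR99021 was added on day 2 of this protocol. *Axin2* was at 0.40 ± 0.39 log2 RPKM (SD, n = 4 libraries) in wt cells at day 2 and at 4.58 ± 0.52 (SD, n = 4) at day 2.5, and in mat del cells at 0.54 ± 0.84 (SD, n = 4) and 4.55 ± 0.97 (SD, n = 3). It stayed at means of 4.15 to 4.70 log2 RPKM at days 3 and 4 in both genotypes. The exact two-sided permutation test of day 2.5 against day 2 gave 0.0286 in wt and 0.0571 in mat del cells for *Axin2*. These are the smallest p-values these numbers of libraries allow. Adjusted over 18 tests, the permutation test gave 0.103 in both. With such smallest p-values no adjusted value of these tests could pass 0.05, so the adjusted tests cannot decide whether the days differ.

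*Wnt5b* was higher at day 2.5 than at day 2 by 4.58 log2 units in wt and 4.77 in mat del cells, with no overlap between the libraries of these days in either genotype. *Wnt5a* was higher by 3.82 and 4.82 log2 units, likewise without overlap. *Dkk1* was higher by 4.19 and 6.30 and *Wnt3a* by 3.98 and 6.50 log2 units. For both of these genes the libraries of these days overlapped in wt cells and did not in mat del cells. All 3 mat del libraries of day 2.5 are labelled line 1, whereas the other 3 groups of these days each include 1 library of line 2. By these labels the genotypes are not matched by line. The paper instead reports 2 technical replicates of 2 lines, and for mat del cells at day 2.5 it reports 3 replicates from 2 lines. Which of both is right cannot be told apart here, and the labels are followed below. In the libraries of line 1 alone, a comparison chosen after seeing the data, *Dkk1* was higher by 4.46 log2 units in wt and 4.92 in mat del cells and *Wnt3a* by 5.62 and 5.55, and a difference between the genotypes was not tested. The exact permutation tests of these 4 genes also gave 0.103 after adjustment. Day 2 values of *Dkk1* and *Wnt3a* reach -8.42 and -8.60 log2 RPKM in the mat del library of line 2, and the reads behind values this low are not known. *Ctnnb1*, *Gsk3b*, *Wnt4* and *Wnt7b* had overlapping libraries at days 2 and 2.5 in both genotypes. Replicates 1 to 3 are labelled as line 1 and replicate 4 as line 2, so the libraries of a group are not independent lines and the tests measure the spread between libraries.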
